A study of Homo sapiens with 5 samples.

Results

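The genes described here are those of the heat shock proteins and their J-domain co-chaperones. They were chosen by name: every probe set with a single gene symbol that starts with HSPA, HSPB, HSPD, HSPE, HSPH, HSP90, DNAJA, DNAJB or DNAJC, with pseudogenes left out. This gave 173 probe sets of 74 genes, of 19775 genes that have a probe set with a single symbol. The letters also take in 5 noncoding RNAs named after a neighbouring chaperone gene, and HSPBP1 and HSPBAP1, which bind heat shock proteins without being one. HSPA1A, HSPA1B, HSPA8 and DNAJC25 share each of their probe sets with another symbol, so no value is given for them. The 14 probe sets of that kind, which are not assigned to a gene here, include 13 above the floor defined below. In the 6 comparisons made, 0 of these 13 were 2-fold apart. Their log2 differences ran from -0.40 (lipoxin B4 against lipoxin A4) to 0.62 (lipoxin B4 against unstimulated cells). Of all measured genes, between 0.494% and 1.57% were at least 2-fold higher in a comparison and between 0.826% and 1.97% lower. The count of 0 thus does not set these probe sets apart from the background.

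The cells were MonoMac6, an established line of human monocytic cells. Total RNA of 5 cultures was hybridised to 1 oligonucleotide array each: unstimulated cells, and cells cultured for 12 h with leukotriene B4 (LTB4), leukotriene C4 (LTC4), lipoxin A4 (LXA4) or lipoxin B4 (LXB4), each added at 100 nM from a stock in DMSO. The sources used here do not say if DMSO was also added to the unstimulated cells. With 1 array per condition there is no measured error, and no test, standard error or p-value is given for any difference below: all are differences between arrays. All 4 comparisons with unstimulated cells share the unstimulated array. Because the RNA came from whole cultures, fewer cells expressing a gene and less RNA per cell cannot be told apart.

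Molecular chaperones keep proteins folded. HSP70 proteins bind unfolded stretches and release them as they split ATP, J-domain proteins bring the substrate and start the ATP cycle, and nucleotide exchange factors such as the HSP110 proteins end it; HSP90 acts later, on kinases, receptors and other clients, while the HSP60 and HSP10 chaperonin folds proteins inside mitochondria. Heat and proteotoxic stress raise the inducible members, among them cytosolic ones, through the transcription factor HSF1, which binds heat shock elements. Some members of the endoplasmic reticulum are raised by the unfolded protein response through ER stress elements. In monocytes and macrophages HSP90 and HSP70 proteins are known to take part in the maturation of signalling proteins and in the handling of antigens.

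Promoters were taken from RefSeq on GRCh38.p14 (250 bases before to 50 after each gene start), which held 67 of the 74 genes. DNAJC1, DNAJC22, DNAJC24, DNAJC5B, HSPA12B, HSPA14 and HSPB2 had no entry. Both motifs were searched on both strands, and overlapping matches were kept. The heat shock element was searched as GAANNTTCNNGAA and its reverse complement TTCNNGAANNTTC. It was found in 172 of 35116 promoters in the table (0.49%) and in those of 6 members: HSPA6, HSP90AA1, HSP90AB1, HSPD1, DNAJA1 and DNAJB6. They are shown because these 6 genes include the strictly inducible HSP70 and 3 of the 4 members with a mean signal over 20000. Each is printed 5′ to 3′ on the strand of the gene, with the match in capitals.
HSPA6: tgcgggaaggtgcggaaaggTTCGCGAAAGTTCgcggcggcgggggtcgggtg
HSP90AA1: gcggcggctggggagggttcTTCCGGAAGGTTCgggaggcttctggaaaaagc
HSP90AB1, upstream match: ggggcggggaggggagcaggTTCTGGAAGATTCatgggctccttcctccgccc
HSP90AB1, downstream match: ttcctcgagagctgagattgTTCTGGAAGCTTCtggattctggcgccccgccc
HSPD1: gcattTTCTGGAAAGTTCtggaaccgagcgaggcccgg
DNAJA1: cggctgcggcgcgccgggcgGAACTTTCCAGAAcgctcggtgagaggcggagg
DNAJB6: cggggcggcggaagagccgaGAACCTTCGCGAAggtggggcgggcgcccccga

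These windows lie at chr1:161524446-161524498 (plus strand), chr14:102087100-102087152 (minus), chr6:44247758-44247810 and chr6:44247811-44247863 (plus), chr2:197500053-197500090 (minus), chr9:33025256-33025308 (plus) and chr7:157336853-157336905 (plus). Counted from the gene start as 0, the match began at -74 in HSPA6, -88 in HSP90AA1, -165 and -112 in HSP90AB1, -245 in HSPD1, -131 in DNAJB6 and 3 in DNAJA1. In HSPD1 another match overlapped the first and began at -240. A match is a description of these letters and was not tested for binding.

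The ER stress element, searched as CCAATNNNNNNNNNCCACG and its reverse complement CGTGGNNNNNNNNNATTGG, was found in 27 of the 35116 promoters (0.0769%). Among members it was in those of HSPA5 and HSP90B1, the HSP70 and the HSP90 of the endoplasmic reticulum. In HSPA5 the match began at -66, and in HSP90B1 the matches began at -194 and -89, the latter in the reverse orientation. The windows are chr9:125241371-125241429 (minus strand), chr12:103930196-103930254 and chr12:103930301-103930359 (plus strand).
HSPA5: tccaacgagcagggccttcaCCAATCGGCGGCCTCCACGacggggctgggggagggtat
HSP90B1, upstream match: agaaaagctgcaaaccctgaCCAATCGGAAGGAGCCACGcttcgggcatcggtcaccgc
HSP90B1, downstream match: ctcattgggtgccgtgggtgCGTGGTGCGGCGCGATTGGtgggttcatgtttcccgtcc

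Signals are linear intensities in arbitrary units after 1 scaling factor per array. Values under a floor of 48.7, the median of the probe sets' mean signals, were set to it. A gene is called measured if a probe set of it exceeded the floor on at least 1 array, and its values are those of the probe set with the highest mean over the arrays. By this rule 69 of the 74 members and 15374 genes in all were measured; HSPB2, HSPB7, HSPB9, DNAJB7 and DNAJB8-AS1 were under the floor on all 5 arrays. A difference is the log2 of the signal on one array over that on another, and a gene is counted as higher or lower at 2-fold or more. Signals of different probe sets depend on their probes, so each is set against the floor and against itself on other arrays, not against other genes. Beside these measurements, the 18S ribosomal RNA control probe sets were dimmest on the unstimulated array, the middle one being 4.9-fold, 16.5-fold, 1.96-fold and 5.66-fold brighter with LTB4, LTC4, LXA4 and LXB4. The GAPDH 3′ to 5′ ratio was between 0.996 and 1.06 on the 5 arrays, and that of ACTB between 1.1 and 1.13. Signals of cell type markers were taken before flooring. Of 12 monocytic markers, 10 had a probe set and 9 of these had a mean signal over the floor (LYZ 45528, with FCGR1A under it at 11.8). The summed signal of the monocytic markers was lowest with LXB4, at 76601, and between 96004 and 104168 on the other arrays. The median marker had a signal of 320, far under LYZ, so this sum is weighted to the brightest markers. Bright genes as a class were lower on the LXB4 array, as given below. The sum therefore does not show a loss of monocytic markers with LXB4, which was not tested. Of 28 markers of T, B, erythroid, stromal, endothelial and epithelial cells with a probe set, 11 had a mean signal under the floor. The highest were PECAM1 (4808), which monocytes also carry, KRT18 (771) and COL1A1 (234).

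The chaperone set was widely expressed in these cells. Of the 69 measured members, 56 (81.2%) were above the floor on all 5 arrays, against 11013 of all 15374 measured genes (71.6%), and 48 (69.6%) had a mean signal over 200, against 59.3% of all. All 13 members of the endoplasmic reticulum and all 8 of mitochondria were above the floor on every array, as were 28 of the 35 measured members of the cytosol and nucleus. Within families, mean signals ran from 97.7 (HSPA6) to 25347 (HSPA5) in HSP70, from 49.1 (HSPA12A) to 6710 (HSPH1) in HSP110 and the atypical HSP70 proteins, and from 7396 (HSP90B1) to 36244 (HSP90AA1) in HSP90. The chaperonin pair had 15873 (HSPE1) and 32863 (HSPD1), the small heat shock proteins 50 (HSPB8) to 13446 (HSPB1). J-domain proteins ran from 2102 (DNAJA2) to 14600 (DNAJA1) in class A, from 60.3 (DNAJB8) to 10328 (DNAJB11) in class B and from 56 (DNAJC22) to 5550 (DNAJC9) in class C. Both binding partners were measured (HSPBAP1 290, HSPBP1 1087), and the 4 measured noncoding RNAs were all dim, from 50.6 (DNAJC9-AS1) to 90.3 (DNAJC3-DT).

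Few members were 2-fold apart from unstimulated cells with any eicosanoid. LTB4 had 2 members at least 2-fold higher, HSPA6 and HSPA2-AS1, and 0 lower, where 0.722% of all measured genes were higher and 1.74% lower. With LTC4, 0 were higher and 1, DNAJB13, lower, beside 1.21% and 1.68% of all measured genes. LXA4 had 0 in either direction, beside 0.729% and 1.7%, and LXB4 had 0 higher and 1 lower, again DNAJB13, beside 0.527% and 1.97%. Among 69 members 1 gene is a share of 1.45% and 2 genes are 2.9%, so these counts are too few to set the chaperones apart from the background shares. The 3 genes all had dim signals, under 150 on every array. Dimmer probe sets of DNAJA4, HSP90B1, DNAJC4, DNAJC12, DNAJC13 and DNAJC18 also reached 2-fold against unstimulated cells with at least 1 compound. They are not in the counts, because a gene's values are those of its brightest probe set. How often this happens over all genes was not counted.

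The median member lay slightly above unstimulated cells on each stimulated array. The median log2 difference of the 69 members was 0.07 with LTB4, 0.10 with LTC4, 0.07 with LXA4 and 0.09 with LXB4, against 0.00, 0.06, 0.00 and 0.00 over all measured genes. Of the 69, 45 lay above 0 and 22 below with LTB4, 47 and 17 with LTC4, 44 and 22 with LXA4, and 40 and 23 with LXB4. The shares above 0 were thus 65.2%, 68.1%, 63.8% and 58% of members, against 47.3%, 57.1%, 48.2% and 44.5% of all measured genes. The 48 members with a mean signal over 200 were also set beside all 9113 genes over 200: their medians were 0.08, 0.12, 0.09 and 0.13, against 0.04, 0.10, 0.04 and 0.04. Above 0 were 72.9%, 81.2%, 68.8% and 64.6% of these members and 57.9%, 67.9%, 59.9% and 57.6% of these genes, so the lean above 0 was in part common to genes over 200. By compartment, in the order LTB4, LTC4, LXA4 and LXB4, the medians were 0.01, 0.12, 0.06 and 0.12 in the cytosol and nucleus, 0.07, 0.10, 0.04 and 0.09 in the endoplasmic reticulum, 0.05, 0.11, 0.10 and 0.03 in mitochondria, and 0.24, 0.01, 0.24 and 0.07 for the 6 proteins of vesicles and endosomes. Probe sets of the same gene often disagreed: of 46 members with several measured probe sets, 27, 29, 24 and 28 had no pair of opposite sign in the 4 comparisons.

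**Figure D1:**
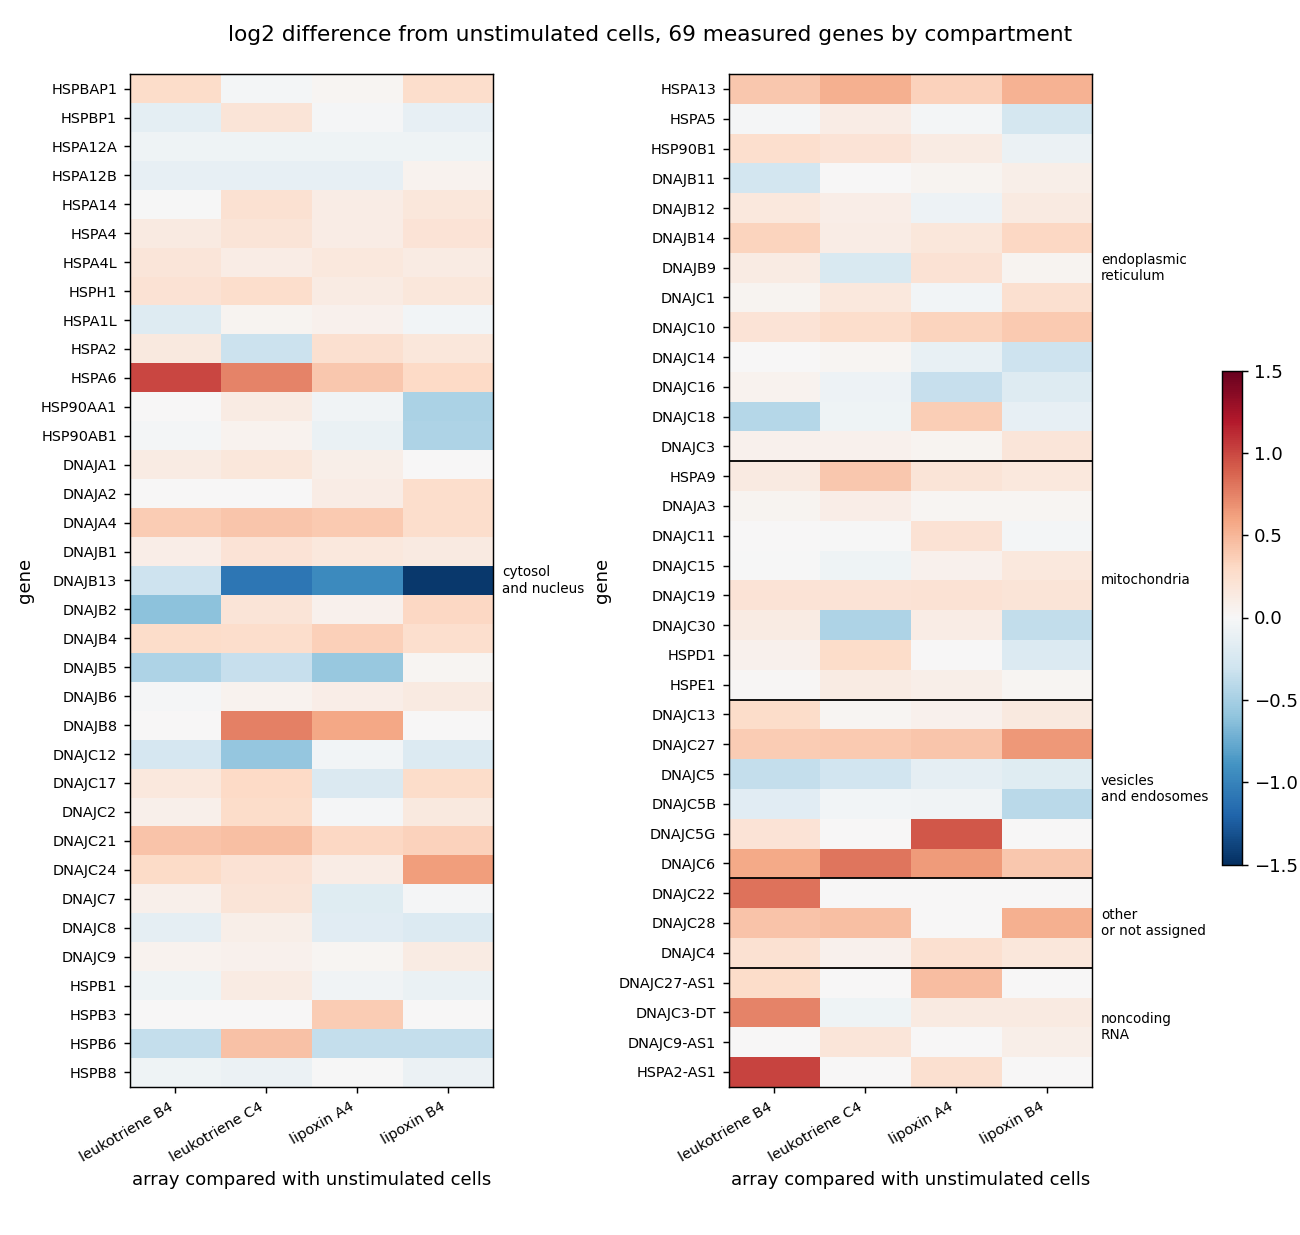
Log2 difference from the unstimulated array (red above, blue below) of the 69 measured members (rows, by compartment) on the 4 stimulated arrays (columns), 1 array per condition. Most cells are pale; the darkest are HSPA6 and HSPA2-AS1 with leukotriene B4 (1.0 and 1.01) and DNAJB13 with leukotriene C4 (-1.08) and the lipoxins (-0.95 and -1.45).

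HSPA6, the HSP70 that is nearly silent without stress and strongly heat-inducible, was the member with the largest difference above unstimulated cells and above the floor on both sides with LTB4. Its signal was 67.4 in unstimulated cells, 135 with LTB4, 113 with LTC4, 89.6 with LXA4 and 83.3 with LXB4. The unstimulated array was the lowest of the 5, by log2 differences of 1.0, 0.74, 0.41 and 0.30. The LTB4 difference stands at the 2-fold threshold and is 0.97 in the values as deposited and 0.91 as the mean of both probe sets. The second probe set read 57.1 in unstimulated cells and 101, 109, 64 and 95.7 with LTB4, LTC4, LXA4 and LXB4, so it too was lowest without stimulus, while the order of the stimulated arrays differed. All of these signals lie within 3-fold of the floor. HSPA6 has a near-identical pseudogene copy, so these signals may include its transcripts.

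On their brightest probe sets, the cytosolic chaperones DNAJB1, HSPH1, HSPB1 and DNAJA1 differed from unstimulated cells by at most 0.26. The cytosolic HSP90 genes are given in the next paragraph. DNAJB1, the heat-inducible HSP40, read 2547 in unstimulated cells and 2729, 2923, 2848 and 2777 with LTB4, LTC4, LXA4 and LXB4, log2 differences of 0.10 to 0.20; its second probe set gave opposite signs with all but LTC4. HSPH1, the heat-inducible HSP110, read 6019 and then 6990, 7208, 6543 and 6791 (0.22, 0.26, 0.12 and 0.17), but its probe sets disagreed: the next brightest gave between -0.09 and 0.01, and the dimmest, at 102 in unstimulated cells, gave 0.59, 0.91, 0.66 and 0.37. For HSPB1, the small heat shock protein HSP27, the signal of 13620 in unstimulated cells lay inside the range of the stimulated arrays, 12691 (LXB4) to 14776 (LTC4). DNAJA1, a partner of cytosolic HSP70, read 13847 in unstimulated cells and between 13816 and 15594 on the others. HSPA4, an HSP110-type exchange factor, read 5584 and then 6130, 6371, 6015 and 6404 (0.13, 0.19, 0.11 and 0.20). Its next brightest probe set, at 5058 in unstimulated cells, gave 0.06, 0.18, -0.01 and 0.04. Without probe sets named _s_at or _x_at, which can match several transcripts, only 1 dim HSPA4 probe set was left, at 261 in unstimulated cells. That probe set gave -0.15 with LTB4, 0.12 with LTC4, -0.07 with LXA4 and -0.26 with LXB4. HSPA1L, a relative enriched in testis, stayed between 148 and 177 on the 5 arrays.

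The 4 members with a mean signal over 20000 were lower on the LXB4 array, 2 of them with a sign that quantile normalization changed. HSP90AA1, the inducible cytosolic HSP90, read 37905 in unstimulated cells, 38007 with LTB4, 41216 with LTC4, 36667 with LXA4 and 27424 with LXB4. The LXB4 array was the lowest, by a log2 difference of -0.47, and all 4 probe sets of the gene were lower there, by -0.33 to -0.47. HSP90AB1, the constitutive cytosolic HSP90, read 27255, 26736, 28126, 25361 and 19869 in the same order, a difference of -0.46 with LXB4, and its 3 probe sets gave -0.32 to -0.46. HSPD1, the HSP60 chaperonin, read 32049, 33439, 38670, 32357 and 27802, highest with LTC4 (0.27) and lowest with LXB4 (-0.21, but 0.20 after quantile normalization). A further bright probe set of HSPD1 read 22834 in unstimulated cells and 17234 with LXB4 (-0.41). HSPA5, known as BiP, read 25957, 25516, 28092, 25425 and 21744, again lowest with LXB4 (-0.26, but 0.03 after quantile normalization), while its dim probe set read 234 and 289 (0.31).

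Bright genes as a class were lower on that array. Of 176 genes over 20000, 171 were lower with LXB4 than in unstimulated cells, with a median of -0.34; the median of the 4 members was -0.36. GAPDH and ACTB, read by their 3′ probe sets, differed by -0.36 and -0.51. In the class from 5000 to 20000 the median with LXB4 was 0.00 for all genes and 0.10 for the 10 members. After quantile normalization, which gives all arrays the same distribution of signals, the LXB4 differences were -0.05 for HSP90AA1 and -0.24 for HSP90AB1. With LTC4 the class over 20000 had a median of 0.11 for all genes and 0.12 for the 4 members, and quantile normalization took the LTC4 differences of HSP90AA1, HSP90AB1, HSPD1 and HSPA5 from 0.12, 0.05, 0.27 and 0.11 to -0.01, -0.06, 0.14 and 0.01. The part of the brightness class in these differences was not tested.

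**Figure D2:**
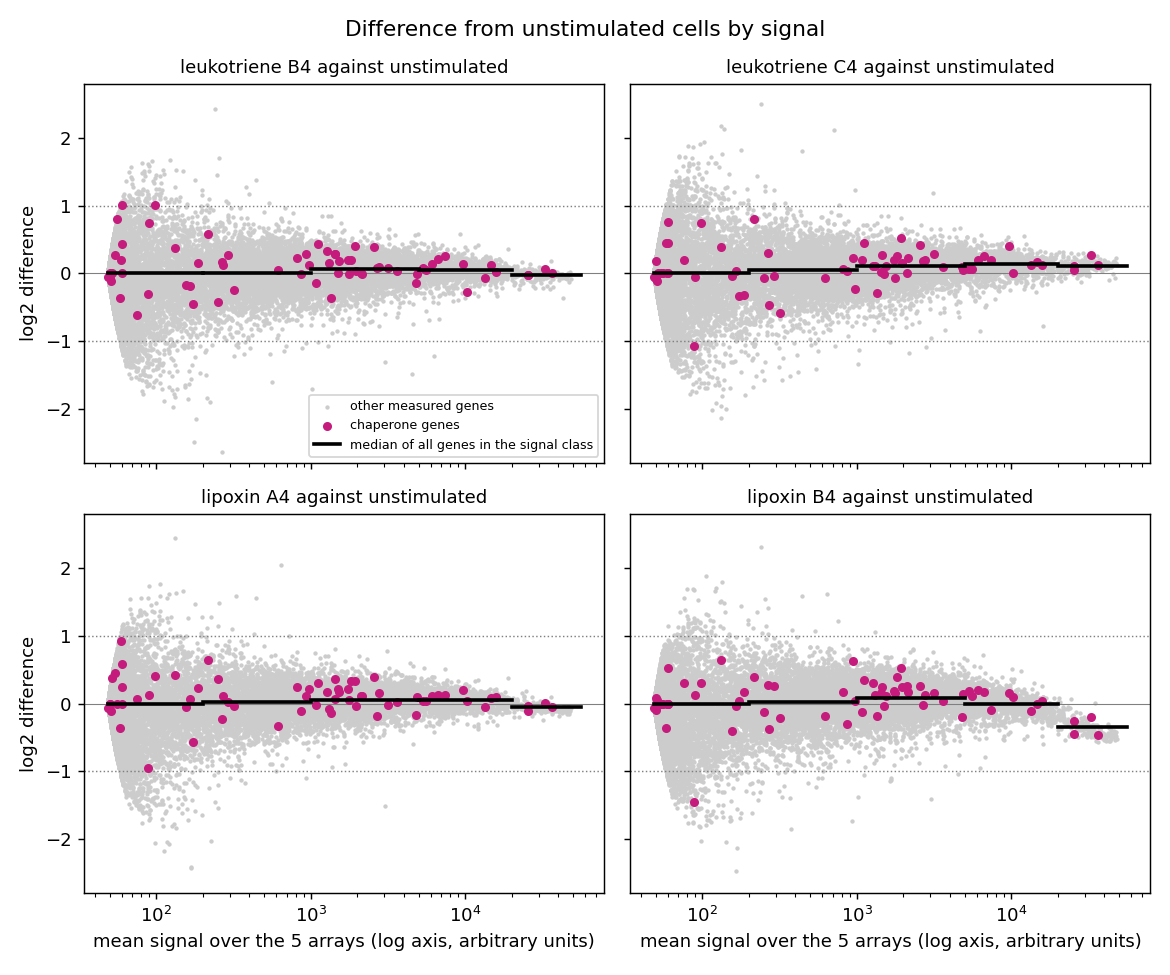
Log2 difference from the unstimulated array (vertical) against mean signal over the 5 arrays (horizontal, log axis), 1 panel per stimulated array; pink points are the 69 members, grey points the other measured genes, black bars the median of all genes in each signal class, and dotted lines 2-fold. With lipoxin B4 the bar of the class over 20000 sits at -0.34, and the 4 members of that class lie at -0.21 to -0.47.

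In the endoplasmic reticulum the member highest above unstimulated cells with LTB4, LTC4 and LXB4 was HSPA13, an HSP70 relative of microsomes. HSPA13 read 1497 in unstimulated cells and 1990, 2158, 1892 and 2152 with LTB4, LTC4, LXA4 and LXB4, so the unstimulated array was the lowest, by 0.41, 0.53, 0.34 and 0.52. Its second probe set gave 0.47, 0.02, 0.37 and 0.52. DNAJC3, the co-chaperone P58IPK that the unfolded protein response induces, read 5058 in unstimulated cells and 5312, 5302, 5206 and 5730 (0.07, 0.07, 0.04 and 0.18). Its other 3 probe sets were 0.31 to 0.90 above unstimulated cells on all 4 stimulated arrays, while quantile normalization took the brightest one to -0.04 with LTC4 and -0.01 with LXA4. DNAJC10, the disulfide reductase ERdj5, read 1541 and then 1770, 1848, 1941 and 2023 (0.20, 0.26, 0.33 and 0.39); it was chosen after its values were seen. HSP90B1, the GRP94 protein, read 6901, 8198, 7900, 7501 and 6481 from unstimulated to LXB4 (0.25, 0.20, 0.12 and -0.09), and its dimmer probe set read 262, 530, 599, 336 and 420, which is 2-fold or more with both leukotrienes and above 0 with LXB4.

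Other members of the endoplasmic reticulum differed among themselves. DNAJB11, or ERdj3, a BiP co-chaperone, read 10486 in unstimulated cells and 8656 with LTB4 (-0.28), and between 10554 and 11171 on the other 3 arrays. DNAJB9, or ERdj4, read 951, 1037, 812, 1104 and 976, lowest with LTC4 (-0.23), where leaving out probe sets named _s_at or _x_at gave 0.11. The lowest members of the compartment with LXA4 and LXB4 were the membrane J proteins DNAJC16 (-0.34) and DNAJC14 (-0.31), but a second probe set of each gave 0.09 and 0.25 there. DNAJC18, another membrane J protein, was the lowest with LTB4 (-0.43) and the highest with LXA4 (0.37) on its brightest probe set. A second probe set of DNAJC18 read 170 in unstimulated cells and gave -0.98, -1.0, -0.96 and -1.59 on the 4 arrays, so the gene's direction depends on the probe set.

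**Figure D3:**
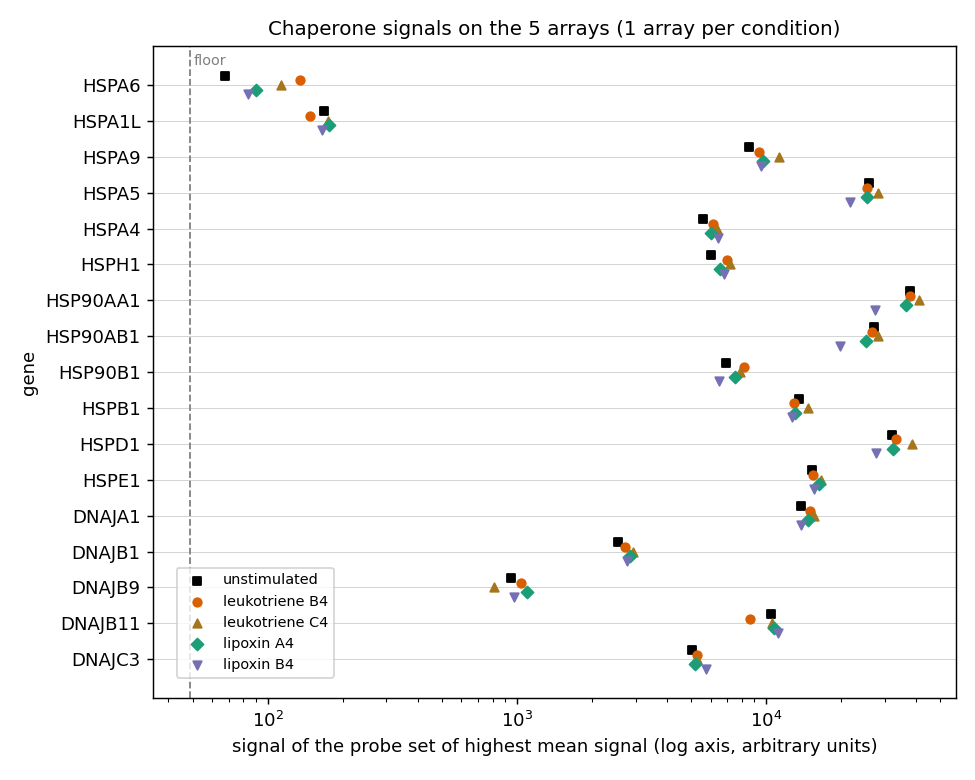
Signal (horizontal, log axis, arbitrary units) of 17 inducible and housekeeping chaperones on the 5 arrays, 1 point per array, with the floor of 48.7 as a dashed line. For most genes the 5 points nearly coincide. Lipoxin B4 is the lowest point for HSP90AA1 (27424), HSP90AB1, HSPD1 and HSPA5, and also for HSP90B1, HSPB1 and DNAJA1. HSPA6 is the dimmest gene shown (67.4 to 135).

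Mitochondrial members spread most widely with LTC4. HSPA9, or mortalin, the HSP70 that pulls proteins into the matrix, read 8524 in unstimulated cells, 9378 with LTB4, 11272 with LTC4, 9752 with LXA4 and 9541 with LXB4 (0.14, 0.40, 0.19 and 0.16). Its 2 other measured probe sets lay above unstimulated cells on each stimulated array as well, by 0.03 to 0.69. HSPE1, the lid of the chaperonin, read 15289 and then 15460, 16669, 16289 and 15660, at most 0.12 above. DNAJC19, a J protein of the import motor at the inner membrane, was 0.19 to 0.22 above unstimulated cells on all 4 arrays. DNAJC30, a mitochondrial J protein, read 291, 317, 211, 314 and 225, lower than unstimulated with LTC4 (-0.46) and LXB4 (-0.37). DNAJC15, also of the inner membrane, was the lowest of the compartment with LTB4 at -0.01.

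Among J proteins of vesicles and endosomes, DNAJC6 and DNAJC5 stood on opposite sides of unstimulated cells. DNAJC6, the auxilin that recruits HSP70 to uncoat clathrin, read 152 in unstimulated cells and 226, 265, 237 and 200 with LTB4, LTC4, LXA4 and LXB4 (0.57, 0.80, 0.64 and 0.40). The unstimulated array was the lowest; its second probe set was under the floor on all 5 arrays. DNAJC5, the cysteine string protein of secretory vesicles, read 1536 in unstimulated cells and 1198, 1253, 1390 and 1355 (-0.36, -0.29, -0.14 and -0.18). All 3 of its probe sets were highest in unstimulated cells. With LXB4 the highest member of the compartment was DNAJC27, a Rab-like J protein (102 in unstimulated cells, 160 with LXB4), for which other probe sets had the opposite sign, and the lowest was DNAJC5B (170 and 129).

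Of the remaining J proteins, DNAJB13 was the only member at least 2-fold lower than in unstimulated cells on its brightest probe set. DNAJB13, a protein of motile cilia, read 139 in unstimulated cells, 112 with LTB4, 65.8 with LTC4, 71.9 with LXA4 and 50.8 with LXB4, so that it was 2.11-fold lower with LTC4 and 2.74-fold lower with LXB4. Its second probe set read 131 in unstimulated cells and 86 with LTB4, was under the floor with LTC4 and LXA4 and read 49.4 with LXB4. Both probe sets were highest without stimulus, and all these signals are within 3-fold of the floor. Among cytosolic members above the floor on both arrays, the lowest with LTB4 was DNAJB5, an HSP40 protein (207 and 150, -0.46), and the highest with LXB4 was DNAJC24, which takes part in diphthamide synthesis (781 and 1205, 0.63). DNAJA4, an HSP40 protein chosen after its values were seen, read 2092 in unstimulated cells and 2730, 2797, 2741 and 2505. Its dimmest probe set went from 95.3 to between 182 and 229, while its other 2 differed by at most 0.16. DNAJC4, the one unassigned member above the floor throughout, gave 0.23, 0.06, 0.24 and 0.17 on its brightest probe set and -0.32, 0.07, -0.13 and -0.26 on the next, which read 738 and 725 in unstimulated cells. With LTC4 a dimmer probe set of DNAJC4 was at least 2.6-fold higher, and another gave -0.77.

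**Figure D4:**
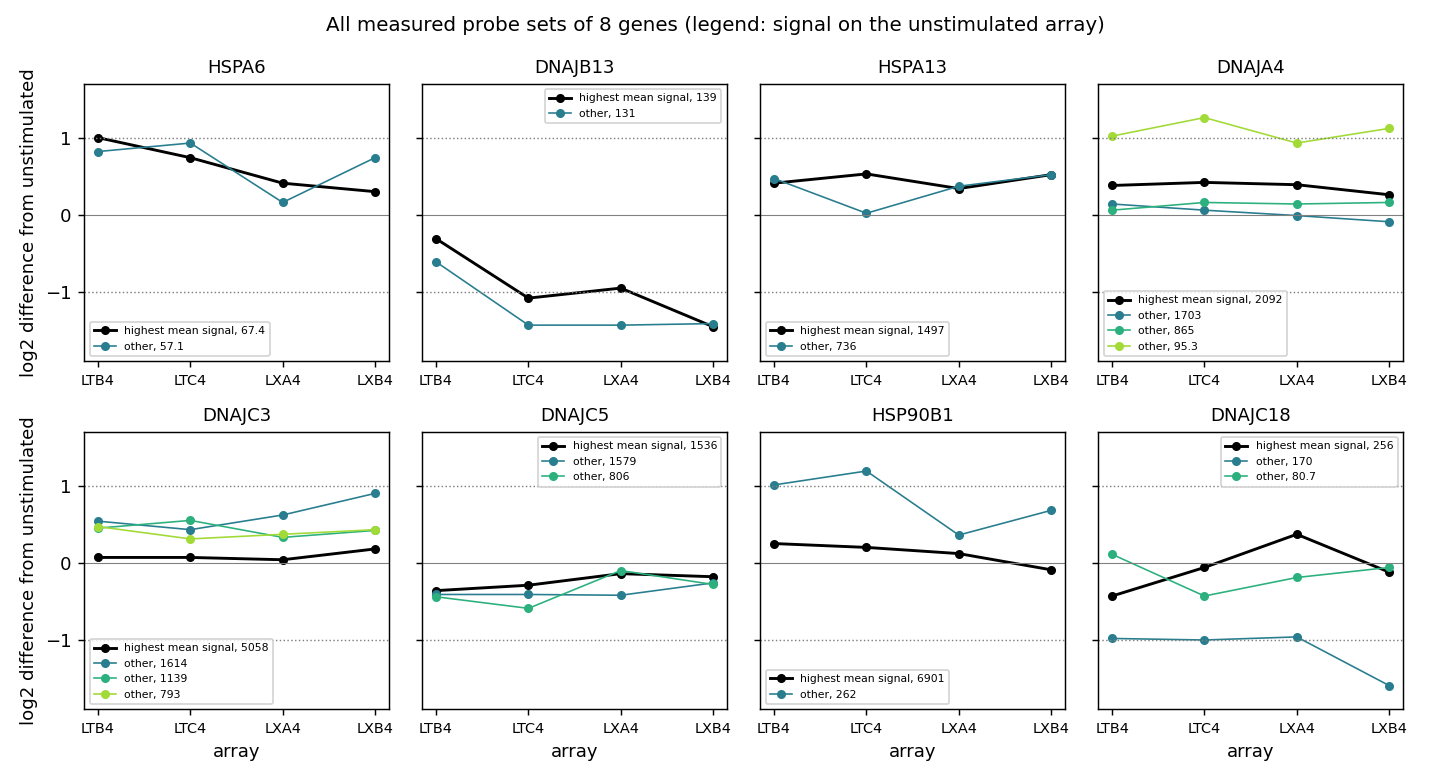
Log2 difference from the unstimulated array (vertical) on the 4 stimulated arrays (horizontal) for each measured probe set of 8 genes; the black line is the probe set of highest mean signal and dotted lines are 2-fold. The probe sets of DNAJC5 all lie below 0 and those of HSPA6 all above, while for DNAJC18 and HSP90B1 they part, by up to -1.59 against -0.12 and 1.19 against 0.20.

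Of the noncoding RNAs, HSPA2-AS1, an antisense RNA, read 98 with LTB4 and 57.6 with LXA4 and lay under the floor on the other 3 arrays. It was thus at least 2.01-fold higher with LTB4 than in unstimulated cells, from 1 probe set. DNAJC3-DT, transcribed away from DNAJC3, read 77.6 in unstimulated cells, 130 with LTB4, 74.5 with LTC4, 85 with LXA4 and 84.8 with LXB4. The LTB4 array was the highest for both.

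The compounds of each class were then compared directly, at the same dose and time, in 2 pairs. LTC4 carries glutathione and LTB4 a further hydroxyl group, and LXB4 differs from LXA4 in the position of a hydroxyl group. Between LTC4 and LTB4, 0 members were at least 2-fold higher with LTC4 and 1, HSPA2-AS1, was at least 2.01-fold lower, beside 1.57% and 0.885% of all measured genes. The median member differed by 0.03, against 0.04 over all genes, and 40 members (58%) lay above 0 and 26 (37.7%) below, against 55.6% and 36% of all genes. Between LXB4 and LXA4, 0 members were 2-fold apart in either direction, beside 0.494% higher and 0.826% lower of all genes, and the median was -0.03 against 0.00, with 29 (42%) above 0 and 37 (53.6%) below, against 42.1% and 45.3% of all genes. The 3 HSP90 genes were all lower with LXB4 than with LXA4, with differences of -0.42 (HSP90AA1), -0.35 (HSP90AB1) and -0.21 (HSP90B1, but 0.06 as the mean of its probe sets). After quantile normalization those of HSP90AA1 and HSP90AB1 were -0.09 and -0.17. Both belong to the class of signals over 20000. With 1 array per compound no interval can be given for a difference, so neither a difference nor its absence is shown. Of 46 members with several measured probe sets, 18 had no opposite signs between LTC4 and LTB4 and 19 between LXB4 and LXA4.

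In 4 lists of other genes of the folding machinery, 0 of 67 measured genes were 2-fold apart in any of the 6 comparisons. All 67 had a mean signal over 200, where such differences were rare: of 9113 genes over 200, between 6 and 14 were at least 2-fold higher and between 6 and 31 lower in a comparison. The medians of these 9113 genes with LTB4, LTC4, LXA4 and LXB4 were 0.04, 0.10, 0.04 and 0.04. The 27 measured chaperone partners and regulators of HSF1 had medians of 0.02, 0.21, 0.07 and 0.10 in that order. HSF1 itself read 1437 in unstimulated cells and 1085, 1204, 1220 and 1200, so it was highest without stimulus. BAG3, which couples HSP70 to HSPB8, read 1252 and then 1270, 1421, 1339 and 1598, and PTGES3, the HSP90 co-chaperone p23, read 28424 and then 28679, 34973, 28569 and 24223. The 12 measured genes of the cytosolic chaperonin and prefoldin had medians of 0.06, 0.22, 0.08 and 0.06, and the 11 of mitochondrial folding and import had medians of 0.00, 0.14, 0.07 and 0.10. In the 22 other genes of the endoplasmic reticulum and the unfolded protein response the medians were -0.02, 0.16, 0.03 and -0.04. There CALR, the lectin chaperone calreticulin, read 21022 in unstimulated cells and 16666, 12211, 16866 and 13941. CALR was highest without stimulus and lowest with LTC4 (-0.78). EDEM1, which directs glycoproteins to degradation, read 2687 in unstimulated cells and 4223 with LTB4 (0.65), and between 2909 and 3094 on the others. DDIT3, a transcription factor induced by prolonged ER stress, read 481 in unstimulated cells and between 372 and 431 on the stimulated arrays. HSF1, BAG3, PTGES3, CALR, EDEM1 and DDIT3 were chosen from these lists after their values were seen. Each is given by its brightest probe set only. Their other probe sets and the processing alternatives were not examined.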

How the data were processed

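Per the file headers and labels, the deposited table holds 1 intensity signal per probe set on a linear scale, 54675 probe sets on each of 5 arrays. Per the submitters' processing notes the authors used GCOS 1.4; the sources used here do not name the signal algorithm. Trimmed by 2% at either end, mean signals were 499 to 500 on each array. Of the probe sets 62 are controls, 41097 carry 1 gene symbol in the platform annotation, 1801 carry several and 11777 have no entry; only single symbols gave gene names. Each array was scaled by 1 factor (0.978 to 1.03) so that the median of the brighter 50% of probe sets was equal, floored at the 50th percentile of mean log2 signal (48.7) and taken to log2. With 1 array per condition no test was run; counts are of genes at least 2-fold apart. The number of arrays limits the precision. The counting was tested on simulated data. Changes larger than 2-fold were placed only in genes well above the floor, with the same log2 spread at every signal. That test therefore does not cover the members counted here, which are near the floor.

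The members, gene lists and rules were chosen with earlier results of these data known. Named genes were all members 2-fold apart in any of the 6 comparisons, a core of inducible and housekeeping chaperones, the highest and lowest member of each compartment above the floor, and the brightest and dimmest of each family; genes outside this rule are marked as chosen after their values were seen. Alternatives were floors at the 30th and 70th percentiles, no rescaling of the deposited values, quantile normalization and averaging a gene's measured probe sets. A further alternative left out probe sets with names ending in _s_at or _x_at, while those ending in _a_at were kept. Promoters are those of RefSeq (GRCh38.p14). Protein sequences were not used here. Python 3.11.15 with pandas 2.3.3, numpy 2.4.6 and matplotlib 3.10.9 was used.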

Additional observations from a re-analysis of the deposited data

Results flagged for a closer look

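The 18S ribosomal RNA control probe sets, which enter no comparison, were brightest on the LTC4 array: the 5′ set was 14-fold, the middle set 16.5-fold and the 3′ set 3.41-fold brighter than on the unstimulated array.

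For 3 members both leukotriene arrays lay on one side of unstimulated cells and both lipoxin arrays on the other. The share of all measured genes with this pattern was not counted, so the 3 are not set apart from the background. The difference between the classes was not tested. HSP90AA1 was 0.32 higher (log2) in the mean of the leukotriene arrays than in the mean of the lipoxin arrays, with LTB4 at 0.00 and LXB4 at -0.47 from unstimulated cells, and after quantile normalization its LTC4 and LXA4 differences changed sign (-0.01 and 0.04). DNAJC7, a co-chaperone of HSP70 and HSP90 chosen after its values were seen, was 0.23 higher with the leukotrienes. Its LXB4 difference from unstimulated cells was only -0.02. DNAJC15, a J protein of the mitochondrial inner membrane, differed by -0.15, that is, it was lower with the leukotrienes. Its LTB4 difference from unstimulated cells was only -0.01. Other probe sets of all 3 genes had the opposite sign in at least 1 comparison. For HSP90AA1, 2 of its 4 probe sets gave -0.16 and -0.17 with LTB4, and 1 gave -0.06 with LTC4.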

How the results depend on the processing

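The median difference of the members moved by less than 0.1 (log2) in all 6 comparisons under each of the 6 alternatives. The medians were themselves at most 0.10 from 0, so such a move can be as large as the median. The sign of the median changed between LTC4 and LTB4 with quantile normalization and without probe sets named _s_at or _x_at (-0.01 in both). It also changed between LXB4 and LXA4 with quantile normalization (0.03). The counts of members at least 2-fold apart, small throughout, changed with the floor. A floor at the 30th percentile (signal 17.4) left 73 members of 18689 measured genes. The counts were then 5 with LTB4, 5 with LTC4, 4 with LXA4 and 7 with LXB4. They were 5 between LTC4 and LTB4 and 6 between LXB4 and LXA4. The share of all genes 2-fold apart was not counted at that floor, so these counts do not set the members apart. With the floor at the 70th percentile (signal 244), which leaves 48 members, they were 0 in each of the 4 comparisons that had had any. Quantile normalization gave 1 with LTB4 and 0 between LTC4 and LTB4; the values as deposited gave 1 with LTB4; the mean of probe sets gave 1 with LTB4 and 1 with LXA4. Over 47 of the named members, 231 of 276 differences stayed within 0.1 under quantile normalization and 32 took the opposite sign. In the values as deposited these were 282 and 13 of 282, and with the mean of probe sets 189 and 45 of 282. No paired analysis was possible because each group holds 1 array. With 1 array per condition, differences due to the culture, the RNA or the array cannot be told apart from those of the compound, and near the floor small changes of signal give large ratios.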
